A study of Mus musculus with 2 samples.

Results

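The genes described here encode the contractile apparatus of striated muscle and the machinery that couples excitation to contraction, without the myosin heavy chains. They are 38 named genes, of 21887 protein coding genes on the chromosomes that held GATA4 peaks. They were listed by the known function of their products, with earlier results of these data known, and all 38 were matched to RefSeq gene spans of GRCm38.p6. A peak was assigned to a gene when its centre lay in the gene span or within 10 kb of it. Chromatin immunoprecipitation sequencing had mapped GATA4, a transcription factor whose zinc fingers bind GATA words in DNA, in cultured mouse skeletal muscle myoblasts, and 17539 peaks were deposited. One library was made with a mixture of 3 GATA4 antibodies and the other with control IgG, with 1 library per antibody and no replicate. Both came from satellite cell-derived myoblasts of the strain STOCK Myf5tm1Pas/J, whose name records a targeted Myf5 allele, kept in growth medium with 20% fetal bovine serum and 20 ng/ml basic fibroblast growth factor. No source used here gives the age or number of the donor animals. The peak list says where GATA4 was found and not whether a gene was expressed, so the cell type could not be checked against expressed markers. With 1 library there is no error between samples for any value below, and nothing was tested between libraries.

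A sarcomere is built of thin filaments of actin, tropomyosin, troponin and nebulin, and of thick filaments of myosin with its light chains and binding proteins. The Z-disc anchors the thin filaments, the M-band cross-links the thick filaments, and titin spans from one to the other. On excitation the voltage sensor in the surface membrane opens the ryanodine receptor, calcium leaves the sarcoplasmic reticulum and binds troponin C, and a calcium pump then returns it. Proliferating myoblasts carry few or no sarcomeres, and most of these genes are switched on when myoblasts leave the cell cycle and fuse. In the heart GATA4 is known as a regulator of contractile genes, among them those of cardiac troponin C and troponin I.

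The start sites closest to a peak are shown first, because they are the places where the peak list and a promoter sequence meet. Of the 38 genes, 32 were in a RefSeq promoter table of GRCm38.p6, and 4 of these had a peak centre within 1 kb of a listed start site, or 12.5% against a background of 9.22% of 17492 protein coding genes. They were Tnnt2 (cardiac troponin T), Tpm3 (a tropomyosin), Ttn (titin) and Tnnc1 (slow skeletal and cardiac troponin C). A promoter window, from 250 bases before to 50 after a start, was touched by a peak in 3 of the 32 genes (9.38%), against 8.38%. These were the same genes without Tnnc1. Each sequence below gives the 250 bases before a start site, 5′ to 3′ on the strand of the gene, and Tnnt2 has 2 such sites. Capitals mark GATA words (AGATAA and AGATAG as well as TGATAA and TGATAG) and E-box words, the sites of MyoD-type factors (CAGCTG as well as CACCTG and its reverse complement CAGGTG), on either strand.
Tnnt2, first start (chr1:135836084-135836333, plus strand): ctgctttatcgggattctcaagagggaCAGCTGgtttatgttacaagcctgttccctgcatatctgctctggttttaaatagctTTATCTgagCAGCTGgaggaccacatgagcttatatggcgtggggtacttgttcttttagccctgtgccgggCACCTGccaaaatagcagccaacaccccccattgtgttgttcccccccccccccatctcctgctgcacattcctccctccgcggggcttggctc
Tnnt2, second start (chr1:135836739-135836988, plus strand): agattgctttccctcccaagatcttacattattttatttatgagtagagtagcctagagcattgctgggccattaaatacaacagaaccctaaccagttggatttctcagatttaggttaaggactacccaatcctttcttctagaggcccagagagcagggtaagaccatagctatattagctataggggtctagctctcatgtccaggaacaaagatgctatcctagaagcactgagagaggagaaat
Tpm3 (chr3:90072401-90072650, plus strand): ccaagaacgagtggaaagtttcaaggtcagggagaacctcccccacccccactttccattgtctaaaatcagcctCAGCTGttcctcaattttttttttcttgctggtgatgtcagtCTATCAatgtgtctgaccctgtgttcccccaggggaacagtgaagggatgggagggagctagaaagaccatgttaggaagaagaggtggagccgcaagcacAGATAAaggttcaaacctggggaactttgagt
Ttn (chr2:76982548-76982797, minus strand): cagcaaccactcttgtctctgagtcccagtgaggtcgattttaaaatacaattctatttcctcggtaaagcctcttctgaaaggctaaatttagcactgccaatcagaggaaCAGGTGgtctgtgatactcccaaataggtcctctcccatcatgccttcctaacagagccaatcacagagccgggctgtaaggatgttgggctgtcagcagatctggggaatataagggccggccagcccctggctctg
Tnnc1 (chr14:31208062-31208311, plus strand): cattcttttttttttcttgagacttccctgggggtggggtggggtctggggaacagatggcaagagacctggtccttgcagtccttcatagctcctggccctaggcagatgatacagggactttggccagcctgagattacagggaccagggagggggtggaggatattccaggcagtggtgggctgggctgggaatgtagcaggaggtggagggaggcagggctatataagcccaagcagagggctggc

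All 250 bases before the first Tnnt2 start, the Tpm3 start and the Ttn start lay inside a peak. Of those before the second Tnnt2 start, 179 did (71.6%), and of those before the Tnnc1 start 0 did, since that peak lay on the other side of the start. The Tnnt2 stretch held 1 GATA word, read as TTATCT from 166 bases before the start, and 3 E-box words at 223, 157 and 94 bases before it. The GATA word and the middle E-box there were separated by only 3 bases. In Tpm3 there were 2 GATA words, CTATCA from 133 and AGATAA from 32 bases before the start, and 1 E-box at 175. The Ttn stretch held 1 E-box, at 138 bases before the start, and no GATA word. The second Tnnt2 stretch and the Tnnc1 stretch held neither. A match is a description of letters and not a site, and a missing word says only that these letters are not in the stretch.

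Over the whole promoter windows, GATA words were about as frequent near these genes as elsewhere. Of the 40 windows of the 32 genes, 10 held a GATA word (25%), against 26.0% of 21263 windows of protein coding genes. E-box words were in 26 of the 40 windows (65.0%), against 31.9% of all windows. The windows of the 2 Tnni1 starts overlap and share the same CAGCTG word. The 9 genes with a GATA word were Ldb3, Mybpc3, Myl1, Myl2, Myl3, Myom1, Nebl, Tnnt2 and Tpm3. Of these, 5 had a GATA4 peak in or within 10 kb of the gene and 4 did not. Of the 23 genes with an E-box word 10 had a peak and 13 did not, while the 32 genes of the promoter table divided into 16 with a peak and 16 without. Sequence of the peaks away from these windows was not analysed here.

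GATA4 peaks lay in or near 20 of the 38 genes, or 52.6% (exact 95% interval 35.8% to 69.0%, for counting error only), beside a background of 33.3% of all protein coding genes. The other 18 genes had none. The 20 genes held 48 peaks, 35 inside a gene span and 13 outside. Of the 20, 9 had 1 peak and 11 had more, and the share with at least 2 was 28.9% against a background of 13.4%. With at least 3 peaks there were 8 genes, or 21.1%, against 6.51% of protein coding genes. Ttn and Myom1, encoding the M-band protein myomesin-1, had 7 peaks each, a number reached by 1.07% of protein coding genes. Both are over 100 kb long, while that share covers genes of all lengths. Some of the Myom1 peaks lay inside a neighbouring gene, and some of the Ttn peaks were only 6 and 114 bp apart. Within 1 kb of the span the count was 16 genes (42.1%) against a background of 24.6%, and within 10 kb of either gene end it was 15 (39.5%) against 26.2%. Peaks above the median score of the list were found at 15 genes (39.5%) against 18.8%. Peak density over the windows of the 38 genes was 18.1 per Mb (95% Poisson interval 13.3 to 24.0), and over the windows of all protein coding genes it was 8.83 per Mb. Without Ttn and Myom1 it was 15.4 per Mb (10.7 to 21.5). These intervals take the peaks as independent, which peaks that lie close together may not be.

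**Figure D1:**
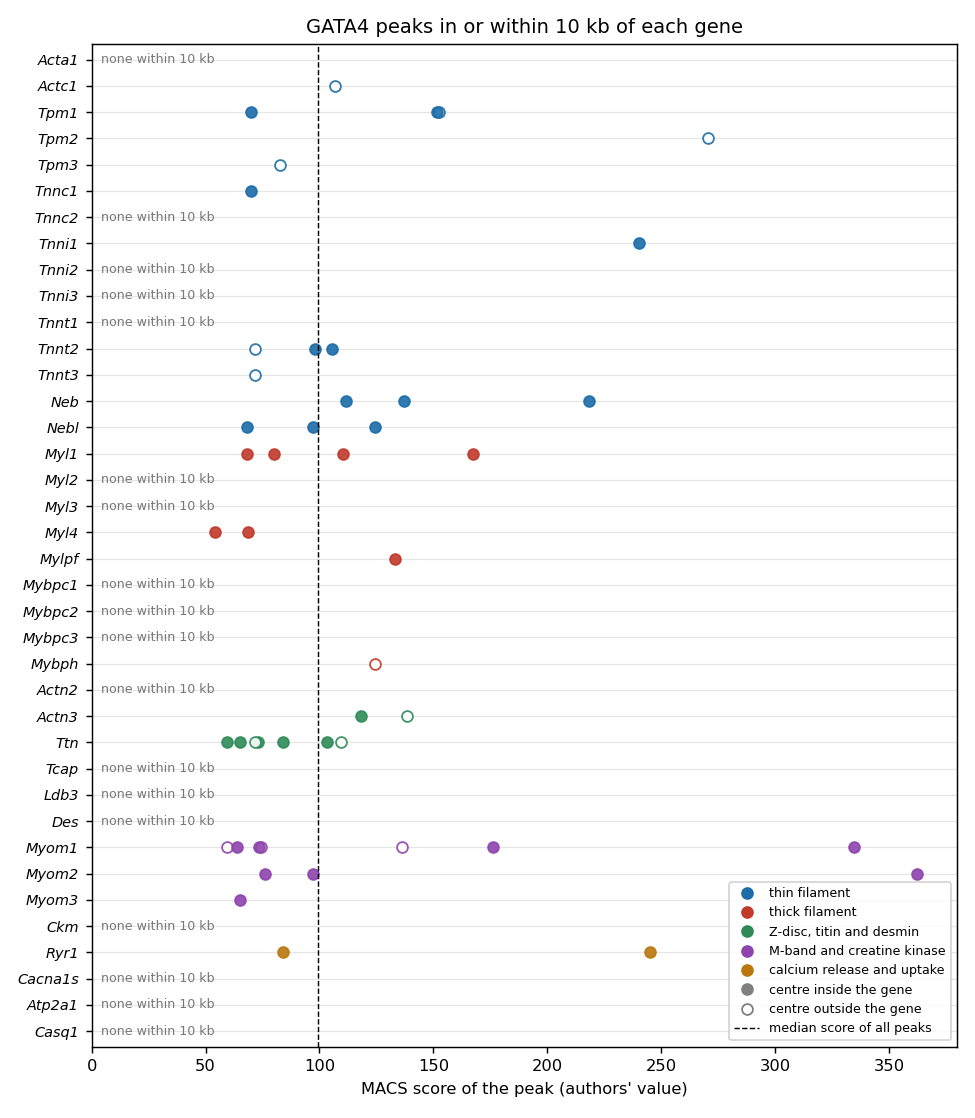
MACS score of each GATA4 peak (horizontal axis, the authors' value per peak) in or within 10 kb of each of the 38 genes (vertical axis), coloured by role, with filled points for peak centres inside the gene and open points for those outside. The dashed line is the median score of all 17539 peaks, and 23 of the 48 points lie above it.

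In score and width the 48 peaks lay close to other peaks near genes. Their MACS scores, the authors' value per peak, ran from 54.1 to 362 with a median of 97.5 and quartiles of 71.6 and 136. The 11380 peaks in or near any protein coding gene had a median of 97.0 and quartiles of 76.1 and 136. The median width was 765 bp, against 745 bp for the same set. Scores above 200 were found at 6 of the 48 peaks (12.5%, against 7.78% of peaks near any protein coding gene), and each of the 6 belonged to a different gene. Of the 48, 10 had a score that at least 100 peaks of the list shared, nearly all of them narrow. What sets these scores was not tested, so the rank of those 10 peaks is uncertain. The 6 peaks scoring above 200 were those of Myom2 (score 362), Myom1 (335), Tpm2 (271), Ryr1 (245), Tnni1 (240) and Neb (218). Of the 48 peaks, 14 also had another protein coding gene within 10 kb, and 5 had their centre inside that other gene, so distance does not assign them to one gene.

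Longer genes offer more room for a peak, so the shares were also read by gene length. They stood above the background in 3 of 4 length classes, each time by less than the counting error of so few genes. Among the 12 genes of up to 10 kb, 5 had a peak (41.7%, exact 95% interval 15.2% to 72.3%), beside 18.3% of protein coding genes of that length. Of 14 genes over 10 and up to 30 kb, 7 had a peak (50%, 23.0% to 77.0%), beside 31.1%. Of 7 genes over 30 and up to 100 kb, 3 had one (42.9%, 9.90% to 81.6%), close to the background of 44.1%. All 5 genes over 100 kb, Neb, Nebl, Ttn, Myom1 and Ryr1, had one (100%, 47.8% to 100%), beside 65.5%. In each of the 4 classes the background share lay inside the interval of the members. The median length of the 38 genes was 17.9 kb and that of all protein coding genes 17.2 kb. Density was alike in the members of up to 100 kb (18.1 per Mb, 11.8 to 26.6) and over 100 kb (18.1 per Mb, 11.3 to 27.3), beside 9.80 and 7.93 per Mb for protein coding genes of these lengths.

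**Figure D2:**
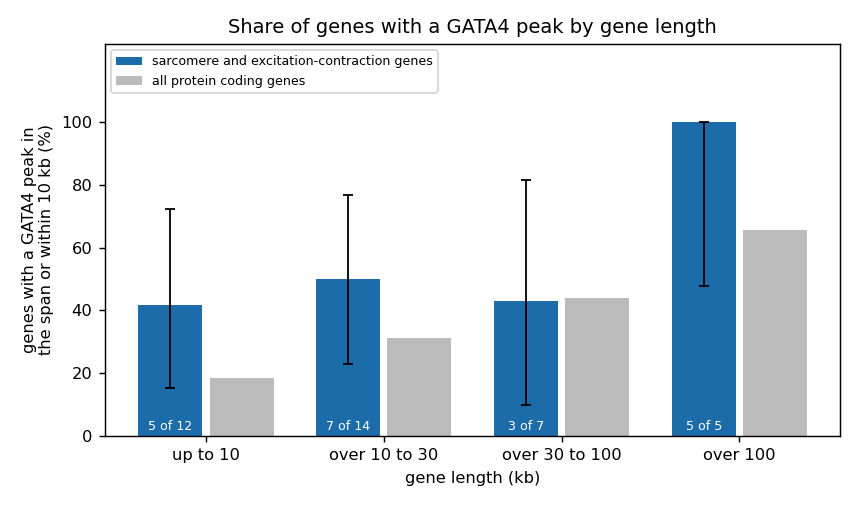
Share of genes with a GATA4 peak in the span or within 10 kb (vertical axis, percent) by gene length (horizontal axis, kb), for the 38 genes (blue, with exact 95% intervals for counting error) and for all protein coding genes (grey). The blue bars stand at 41.7%, 50%, 42.9% and 100%, and the grey bars at 18.3%, 31.1%, 44.1% and 65.5%.

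Thin filament genes were 10 of the 20 genes with a peak. Of the 15 thin filament genes 66.7% had one, with 18 peaks and a median score of 106. Beside this stand the 33.3% of all protein coding genes, and 31.1% of those over 10 and up to 30 kb, the class of the group's median length of 11.4 kb. Neb and Nebl of this group are over 100 kb long, a class in which 65.5% of protein coding genes had a peak. The tropomyosins, coiled coils that lie along actin and cover its myosin sites, each had at least 1 peak. Tpm1 (chr9:67022590-67049672) had 3. One of these, at chr9:67024401-67025768, scored 151 and was 1368 bp wide, the widest of the 48. It lay 90.8% of the way along the gene, 24.1 kb from the listed start. Another inside the gene scored 70.2, at 8.09 kb from the start, and one 8.92 kb beyond the far end scored 153 but was only 351 bp wide. Tpm2 (chr4:43513726-43523583) had a peak of score 271 at chr4:43529975-43531003, centred 6.91 kb upstream of the gene. That score stood at the 96.8th percentile of the list, and Tln1, encoding talin, also lay within 10 kb. Tpm3 (chr3:90072651-90100902) had the peak at its start shown above, chr3:90071954-90072808, with a score of 82.5, centred 0.270 kb upstream. Also within 10 kb of that peak were the genes 4933434E20Rik and 1700094D03Rik.

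The actin genes differed from each other. Actc1 (chr2:114047282-114052875), the cardiac alpha actin that is also made in developing skeletal muscle, had a peak of score 107 centred 4.56 kb upstream. Acta1, the skeletal alpha actin, had none nearer than 105.0 kb.

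Of the 8 troponin genes, 4 had a peak (50%), beside 33.3% of all protein coding genes. Of these 4, only Tnnc1 is up to 10 kb long, a class in which 18.3% of protein coding genes had a peak. Tnni1, Tnnt2 and Tnnt3 are 28.0, 16.0 and 17.4 kb long, in the class up to 30 kb, where 31.1% had one. The median length of the 8 genes was 7.91 kb, and they are few. Troponin T ties the complex to tropomyosin, troponin I inhibits contraction and troponin C binds calcium. The troponin I and T genes lie in 3 linked pairs, which differed in their peaks. The pair of Tnni1, encoding slow skeletal troponin I, and Tnnt2 spanned chr1:135783033-135852268 and had 6 peaks within 50 kb. The highest, at chr1:135794272-135795314, scored 240 and lay inside the annotated span of Tnni1, but 4.63 kb upstream of the nearest listed start. A peak of score 202 lay 11.8 kb outside the pair on the Tnni1 side, just beyond the 10 kb window, and one of 84.1 at 29.9 kb. Another 3 sat at the start of Tnnt2, which encodes the cardiac troponin T also made in embryonic skeletal muscle. They scored 71.6, 106 and 98.0, with centres 1.83 kb before, 0.004 kb before and 0.358 kb after the nearest of its 2 starts. The last of these peaks were separated by only 71 bp, and Lad1 also lay within 10 kb of all 3.

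The other pairs had few peaks or none. The fast skeletal genes Tnni2 and Tnnt3 (chr7:142441816-142516213) had 4 peaks within 50 kb. Only one was within 10 kb, with a score of 71.6 at 5.47 kb from Tnnt3, and the others lay 35.1 to 37.2 kb away with scores of 125.8, 52.4 and 56.2. The pair of cardiac Tnni3 and slow skeletal Tnnt1 (chr7:4504569-4522718) had 0 peaks within 50 kb, and the nearest was 227 kb away. For the troponin C genes, Tnnc1 (chr14:31208312-31211729) had a peak of score 70.1 inside the gene, 0.935 kb after its start. Nisch and Sema3g lay within 10 kb of it too. Tnnc2, the fast skeletal form, had its nearest peak at 27.9 kb.

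**Figure D3:**
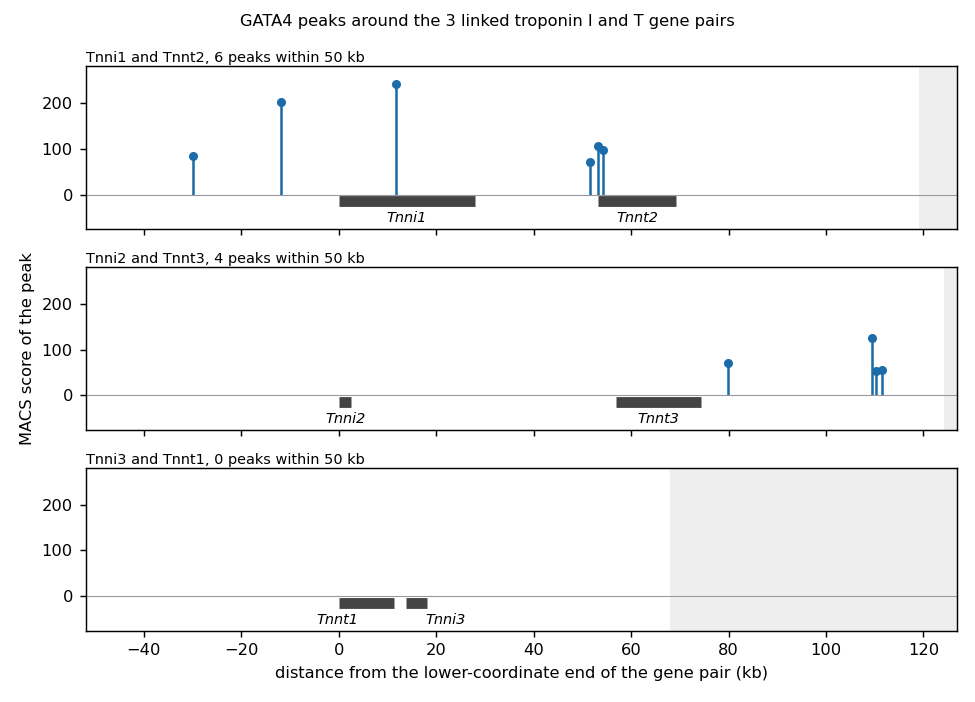
GATA4 peaks within 50 kb of the 3 linked troponin I and T gene pairs, with the distance from the lower-coordinate end of the pair (horizontal axis, kb), the MACS score (vertical axis, stems) and the gene spans (dark bars); grey ground lies beyond 50 kb. The Tnni1 and Tnnt2 pair has 6 peaks, the Tnni2 and Tnnt3 pair 4, and the Tnni3 and Tnnt1 pair 0.

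The nebulin genes held peaks deep inside their long spans. Neb (chr2:52136640-52338798) encodes nebulin, which runs along the thin filament of skeletal muscle. Its 3 peaks scored 218 (chr2:52318847-52319983), 112 and 137, and the first of these lay 1.91 kb from the second. Nebl (chr2:17342673-17734949) encodes the smaller nebulette, best known in heart. Its 3 peaks scored 68.4, 124 and 97.0. None of the Nebl peaks was within 1 kb of any of its 4 listed starts, and the last, the closest, was centred 16.8 kb upstream of one of them.

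Among thick filament genes 4 of 9 had a peak (44.4%), with 8 peaks and a median score of 95.3. With so few genes this share is near the 33.3% of all protein coding genes. The light chains wrap the lever arm of myosin. Myl1 (chr1:66924295-66947932) encodes the fast skeletal essential light chains and had 4 peaks, all inside the gene. Their scores were 167 at 13.1 kb from the listed start, 110 at 7.31 kb, 80.2 at 5.26 kb and 68.0 at 3.80 kb. Among these 4 peaks the score was higher the farther the peak lay from the start. The score of 110 was shared by 607 peaks of the list, so its rank is uncertain. Mylpf (chr7:127208848-127214288), the fast skeletal regulatory light chain, had 1 peak with a score of 133 at chr7:127208606-127209446. It overlapped the lower-coordinate end of the annotated span and lay 2.58 kb upstream of the listed start, with Tbc1d10b and Septin1 within 10 kb. Myl4 (chr11:104546017-104587215), the light chain of atrium and embryonic muscle, had 2 weak peaks inside, with scores of 68.6 and 54.1. The lower of these stood at the 1.42 percentile of all scores. Myl2 and Myl3, the light chains of ventricle and slow muscle, had their nearest peaks at 23.5 and 94.7 kb.

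The myosin binding protein C genes, whose products decorate the thick filament, had no peak within 10 kb in any of their 3 forms. Only 33.3% of all protein coding genes had a peak in that window, so for 3 genes this is not unusual. The nearest peaks were at 26.6 kb for slow Mybpc1, 24.0 kb for fast Mybpc2 and 28.7 kb for cardiac Mybpc3. Mybph (chr1:134193418-134201237), encoding the related myosin binding protein H, had a peak of score 124 centred 4.79 kb downstream. Its centre was inside Adora1, an adenosine receptor gene.

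Of the 6 genes of the Z-disc, titin and desmin, 2 had a peak, Ttn and Actn3 (33.3%), the same share as among all protein coding genes. Ttn (chr2:76703980-76982557) encodes titin, the elastic protein that spans from Z-disc to M-band. Its 7 peaks lay between 2.24 kb before the start and 107 kb into the gene, which is 279 kb long. Of these, 4 lay within 2.24 kb of the start, with scores of 65.2, 84.1, 71.6 and 110 and centres 1.14 and 0.480 kb after and 0.172 and 2.24 kb before it. Gaps of only 6 and 114 bp separated the first 3 of these, which the peak list gives as separate peaks. Another 2, of score 103 and 59.6, lay 54.2 and 52.7 kb into the gene, and the last, of score 72.8, at 107 kb. No peak of Ttn scored above 110, so it had many peaks of moderate score.

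Actn3 (chr19:4861216-4877909) encodes the alpha-actinin of fast fibre Z-discs, which cross-links actin. A peak of score 118, 1329 bp wide, covered the end of Actn3 at the higher coordinate (chr19:4876856-4878184), and another of score 138 lay 1.88 kb outside the other end. The second had its centre inside Ctsf, and Zdhhc24 and Bbs1 were within 10 kb of the first. Actn2, the alpha-actinin of heart and all skeletal fibres, had its nearest peak at 110 kb. Ldb3, whose product binds alpha-actinin, Tcap, encoding the titin cap telethonin, and Des, encoding the intermediate filament protein desmin, had theirs at 18.2, 181 and 15.8 kb.

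Single peaks in 2 M-band genes had the highest scores of the 48, although the 11 peaks of the group of 4 M-band and creatine kinase genes had a median of only 76.2, the lowest of the 5 role groups. Each of the 3 myomesin genes, whose products cross-link myosin and bind titin, had a peak, while Ckm, encoding muscle creatine kinase, had none nearer than 78.0 kb. Beside the share of 75% in this small group stand 33.3% of all protein coding genes. Among those over 30 and up to 100 kb, the class of the group's median length of 66.3 kb, it was 44.1%. Myom2 (chr8:15057653-15133420) had 3 peaks inside, with scores of 97.0, 76.2 and 362. The last (chr8:15072741-15073763) was the highest of the 48 and stood at the 99.2 percentile of the whole list. Myom1 (chr17:71003332-71126856) had a peak of score 335 at chr17:71039902-71041027, at the 98.7 percentile, 20.9 kb after the listed start, and 3 others inside with scores of 176, 73.5 and 63.9. A further 3 lay 0.909 to 7.56 kb outside the span, with scores of 74.4, 59.6 and 136, and their centres were inside Myl12a, which encodes a regulatory light chain of non-muscle myosin. Myom3 (chr4:135758800-135815571) had 1 peak, with a score of 65.2, 12.9 kb from its start. Myom1 and Myom2 thus each held 1 peak far above the median score of 97.5, while the peak of Myom3 was below it.

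**Figure D4:**
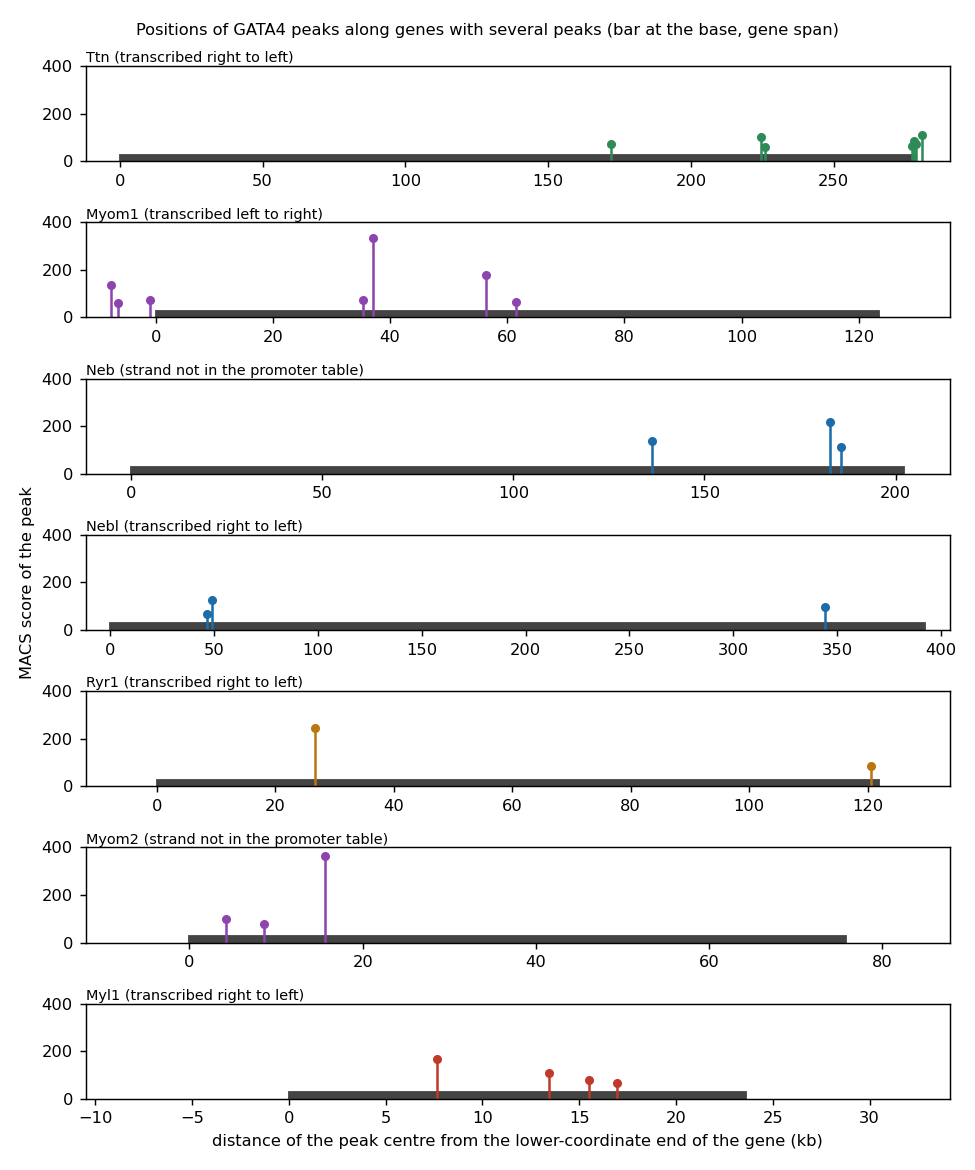
Position (horizontal axis, kb from the lower-coordinate end of the gene) and MACS score (vertical axis) of each GATA4 peak in and within 10 kb of 7 genes, with the gene span as a bar at the base. Ttn peaks crowd at its 5′ end with scores of at most 110, and single peaks of score 335 in Myom1 and 362 in Myom2 stand above their neighbours.

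Of the 4 calcium handling genes only Ryr1 had peaks (25%), near the 33.3% of all protein coding genes with so few genes. Ryr1 alone of them is over 100 kb long, a class in which 65.5% of protein coding genes had a peak. Ryr1 (chr7:29003340-29125179) encodes the calcium release channel of the sarcoplasmic reticulum. A peak of score 84.0 lay 1.16 kb after its start, and one of score 245 at chr7:29029867-29030360, 95.04 kb into the gene. The second was 494 bp wide, at the 13.5 percentile of all widths, and 48 peaks of the list had exactly its score. Cacna1s, the voltage sensor that opens the ryanodine receptor, had its nearest peak 37.6 kb upstream, with a score of 247. Atp2a1, encoding the calcium pump of fast fibres, had a peak of score 110 at 12.2 kb and Casq1, encoding the calcium store protein calsequestrin, one of 167 at 22.8 kb. Their centres were inside other genes, Sh2b1 and Atp1a4, and that of Cacna1s inside Igfn1 and Tmem9.

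Few genes lay close to the limit of 10 kb. The gene just inside it was Tpm2 at 6.91 kb, and the genes just outside were Atp2a1 at 12.2 kb and Des at 15.8 kb. Of the 18 genes without a peak, 10 had one within 50 kb. The remaining 8 were Acta1, Tnni2, Tnni3, Tnnt1, Myl3, Actn2, Tcap and Ckm, with nearest peaks from 66.4 kb (Tnni2) to 233 kb (Tnnt1). Within 50 kb 78.9% of the 38 genes had a peak, beside a background of 56.8%. The median distance to the nearest peak was 6.19 kb, against 34.8 kb for all protein coding genes, with 0 for a peak inside the gene.

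**Figure D5:**
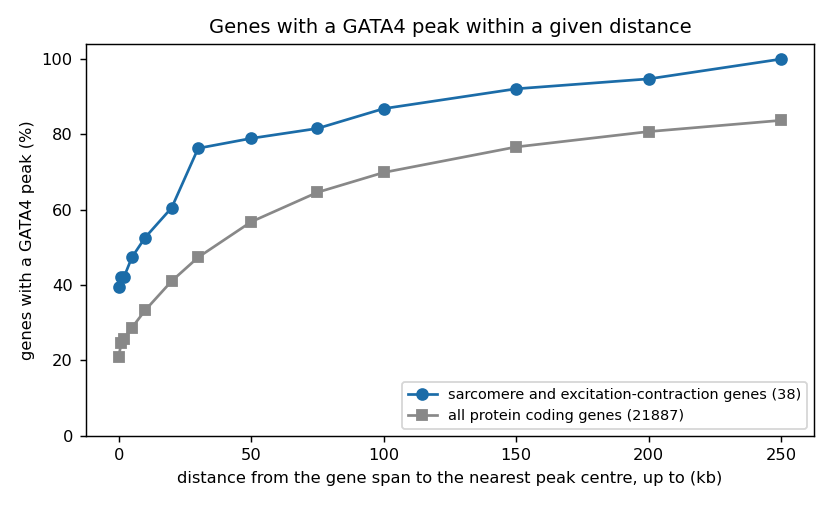
Share of genes (vertical axis, percent) with a GATA4 peak centre within a given distance of the gene span (horizontal axis, kb; 0 means inside the gene), for the 38 genes (blue circles) and the 21887 protein coding genes (grey squares). The blue curve lies above the grey one throughout, at 39.5% against 21.0% inside the gene and at 78.9% against 56.8% within 50 kb.

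Other genes of the same structures, a list of 46, had peaks about as often. In this list 27 genes had a peak in the span or within 10 kb (58.7%, exact 95% interval 43.2% to 73.0%) and 19 had none, beside the same background of 33.3%. Peak density over their windows was 17.3 per Mb (13.6 to 21.7). Of the 38 list genes of up to 100 kb, 20 had a peak (52.6%), beside a background of 29.3% at that length. The 8 genes with the highest scores are described here. Mb, encoding the oxygen store myoglobin, had a peak of score 395 inside the gene, above any of the 48, with Apol6 also within 10 kb of it. Tmod1, whose product caps the pointed ends of thin filaments, had one of 280. Jph1, encoding a junctophilin that holds the voltage sensor and release channel together, had one of 277, though only 371 bp wide.

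Several of the remaining genes belong to calcium handling. They were picked by score, so they give no share of calcium handling genes to set beside the first list. Cacna2d1, an auxiliary subunit of the voltage sensor, had 7 peaks with the highest at 263. Trdn, encoding triadin, which links the release channel to calsequestrin, had 8 with the highest at 222. Ryr3, a second ryanodine receptor gene, had 5 with the highest at 213, and Srl, encoding the reticulum protein sarcalumenin, had 7 with the highest at 199. Nrap, encoding an actin-anchoring protein of forming myofibrils, had 3 with the highest at 233. Jph1, Cacna2d1, Trdn and Ryr3 are long, with spans of 156, 440, 393 and 586 kb, and 65.5% of all protein coding genes over 100 kb had a peak. The 8 genes of this list without a peak within 50 kb were Sln, Pvalb, Klhl40, Cfl2, Xirp2, Flnc, Myoz3 and Cacng1. Of these, Sln, Pvalb and Cacng1 also belong to calcium handling. They too give no share of calcium handling genes. Among all protein coding genes 56.8% had a peak within 50 kb, so lacking one is common.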

How the data were processed

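ChIP-seq libraries of 1 GATA4 and 1 IgG precipitation were made from formaldehyde-fixed (1%) mouse myoblasts, with fragments of 200 to 500 bp and paired reads of 150 bp, per the labels' protocols. CASAVA 1.8 and Bowtie were used with the build GRCm38 (mm10), per the submitters' processing notes. Per the file headers, the authors called peaks with MACS in Galaxy, and the deposited list holds the position of each peak and its MACS score. The sources used here give neither the threshold, nor the duplicate handling, nor the use of the IgG library. No read counts were used: the depth is unknown, and no IgG background stands beside the peaks.

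Peak starts were made 1-based. Genes and promoter windows are those of RefSeq tables of GRCm38.p6; 6 of the 38 genes were not in the promoter table, and for these no strand is given. Exons and untranslated regions were not used. Python 3.11.15, pandas 2.3.3 and scipy 1.17.1 were used. Assignment was tested on simulated data. With 1 library no test was run; shares carry exact (Clopper-Pearson) 95% intervals and densities Poisson intervals, both for counting error only. The members, lists and role groups were chosen with earlier results of these data known. Every member is named, and of the list of 46 the 8 with the highest score; sequences are shown where a peak centre lies within 1 kb of a listed start. The genes of that list without a peak within 50 kb, and the MCAT and CArG words, were chosen after seeing the data. Alternatives were other windows, the nearest gene, any overlap and higher-scoring peaks; peaks of at least 500 bp, peaks without shared scores and genes of at most 100 kb were added after seeing the data.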

Additional observations from a re-analysis of the deposited data

How the results depend on the processing

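The number of genes with a peak, 20 in the report, was 15 to 30 over the 10 alternatives and within 1.5 times in each. The share of these genes stayed above that of protein coding genes in each alternative, by 13.2 percentage points (within 10 kb of either gene end) to 22.2 (gene span plus 50 kb, and without shared scores), against 19.3 in the report. The number of distinct peaks, 48 in the report, moved to 88 with 50 kb, to 28 with gene ends only, to 23 with peaks above the median score, where their median score was 137, and to 26 with genes of at most 100 kb. The first changed with the window, the others with fewer peaks or genes by construction. The remaining values stayed within 1.5 times or within their interval. No paired analysis was possible because there is 1 library per antibody, and the single peak list has no replicate to leave out. Depth limits are unknown, since no read counts were used.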

Other observations

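Grouped by the muscle type in which each form is best known, a grouping drawn up after the values were seen, peaks lay in or near 4 of 9 fast skeletal genes, 3 of 7 slow skeletal genes, 4 of 6 cardiac or embryonic genes and 9 of the 16 genes in none of these classes. The shares were 44.4%, 42.9%, 66.7% and 56.2% in that order, beside a background of 33.3%. With so few genes in each class, these shares do not rank the classes. Tnnc1, with a peak, and Myl2 and Myl3, without, are forms of both slow muscle and heart and were counted as slow. The fast genes held 8 peaks with a median score of 114, the slow genes 3 with a median of 82.5, and the cardiac or embryonic genes 9 with a median of 97.0. The first group was led by Myl1, Actn3 and Mylpf. In the cardiac group Tnnt2, Nebl, Myl4 and Actc1 had peaks, and Tnni3 and Mybpc3 did not.

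Words of 2 further factor families were counted in the promoter windows after the peaks were known. The MCAT word CATTCC, the site of TEAD factors, was in 11 of the 40 windows (27.5%), against 13.6% of all 21263 windows, searched on both strands. Of the 11 genes with it, 7 had a GATA4 peak in or within 10 kb and 4 had none. The 32 genes of the promoter table divided into 16 with a peak and 16 without. Whether the word and the peaks go together was not tested. The CArG box, the site of serum response factor, was in 7 of the 40 (17.5%), against 1.52%. The windows of the 2 Ldb3 starts overlap, and the same box was counted in both. The 6 genes with a CArG box were Acta1, Actc1, Ldb3, Myl3, Myom1 and Nebl, of which 3 had such a peak and 3 had none.

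Some scores recur many times in the list. There were 11 score values that at least 100 peaks shared, held by 4402 peaks, and 99.95% of these peaks were at most 600 bp wide, against 2.10% of the 13137 other peaks. Of the 48 peaks described here, 10 had such a score (20.8%, against 25.1% of all peaks). They were 2 each of Nebl and Ttn and 1 each of Tpm1, Tnnt2, Tnnt3, Myl1, Actn3 and Myom2. The only peak of Tnnt3 was among them, with a score of 71.6 that 555 peaks shared. Without all peaks of such scores 19 of the 38 genes (50%) had a peak, against 27.8% of protein coding genes, and 38 peaks were left. Tnnt3 was the gene lost. What sets these scores was not tested.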
